A study of Mus musculus with 6 samples.

Results

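The Ifi200 genes, also called PYHIN genes, are a family of interferon-inducible genes that lie next to each other in the mouse genome. The 10 genes described here (Ifi203, Ifi204, Ifi205, Ifi206, Ifi207, Ifi208, Ifi209, Ifi211, Ifi213 and Mndal) were chosen by name, of 21959 genes in the deposited table, and all 10 passed the count filter that left 10177 genes for testing. The cells were bone marrow-derived macrophages of wild-type mice, that is, primary macrophages differentiated in culture. For 24 h they were kept in a 1:1 mix of fresh medium with medium in which alveolar macrophages had been cultured for 48 h. These alveolar macrophages, which live in the air spaces of the lung, came from mice aged 8 to 12 weeks and were separated into cells without and with HTR2C, the serotonin receptor 2C. RNA-seq libraries N1, N2 and N3 received medium from the HTR2C-negative cells and P1, P2 and P3 medium from the HTR2C-positive cells. The labels name no strain and do not tell what separates the numbered libraries of a group (culture, animal or medium), so the p-values here rest on a spread that may be technical. Macrophages kept without conditioned medium were not analysed here.

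Proteins of the family usually pair a pyrin domain, which joins proteins to one another, with a HIN domain, which binds double-stranded DNA. Type I interferon raises transcription of the genes in macrophages through transcription factors that bind the interferon-stimulated response element (ISRE) in promoters. Members are known for sensing foreign DNA in the cytosol and nucleus, with Ifi204 acting upstream of the adaptor STING, and for regulating transcription of inflammatory genes. Their relative Aim2 senses cytosolic DNA and assembles an inflammasome.

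The libraries held 12843971 to 16031723 counts and 12147 to 13179 genes with at least 1 count. The macrophage markers Adgre1, Itgam, Csf1r, Cd68, Mertk, Fcgr1, Lyz2 and Cd14 summed to 24280 to 26227 CPM (counts relative to the library total after TMM scaling) in the N libraries and 22936 to 25742 in the P libraries, and all 8 were detected. Of the markers of other cells, 8 neutrophil genes summed to 811 to 1014 CPM and 980 to 1225 CPM, 8 alveolar macrophage genes to 130 to 132 and 127 to 144, 6 epithelial or fibroblast genes to 51.2 to 61.1 and 51.6 to 63.8, 5 mast cell or basophil genes to 20.2 to 22.5 and 14.3 to 22.4, and 6 dendritic cell genes to 3.62 to 8.53 and 6.59 to 9.76. The 7 T or NK cell genes measured summed to 0.265 to 0.672 and 0 to 1.19 CPM, and 4 erythroid genes to 0.202 to 0.344 and 0.132 to 0.484. The 5 B cell genes, at 1.08 to 2.03 and 2.06 to 2.71 CPM, were the one list whose sums did not overlap between the groups. Single markers with an unadjusted p under 0.05 were Csf1r, Camp and S100a9, higher with HTR2C-positive medium, and Cpa3, lower. Ly6g, Krt79, Klrb1c, Hbb-bt, Sftpc and Mcpt4 had 0 counts in all 6 libraries, as did Htr2c, which allows up to 0.171 to 0.265 CPM by counting error alone. In bulk RNA, fewer cells of a type and less RNA per cell cannot be told apart, and the part these markers have in the results below was not tested.

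The 10 genes lie on chromosome 1 between 173296051 and 173859376 (GRCm39), a stretch of 563 kb with 12 genes of the table in it. In order they are Ifi206, Ifi213, Ifi209, Ifi208, Ifi207, Ifi204, Mndal, Ifi211, Ifi203 and Ifi205, with 8 on the minus strand and Ifi209 and Ifi208 on the plus strand. The other genes inside the stretch are Ifi214 and Ifi202b, and Aim2 is the next gene before Ifi206. Between the members, transcripts and promoters are partly copies of one another, and this bears on how their reads could be counted and on what their promoters share.

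RefSeq's table of start regions (GRCm38.p6) held windows, 250 bases before to 50 bases after a start, for 9 of the 10 members, not for Ifi204. An exact ISRE core was searched on both strands as GAAA, any 2 bases and GAAA. It was in at least 1 window of 8 of these 9 members. By window, it was in 9 of the members' 11 windows, compared with 3.44% of all 32851 windows of that length. Several member windows are near copies of one another, so their matches are not separate occurrences. In 6 members (Ifi203, Ifi206, Ifi207, Ifi208, Ifi213 and Mndal) the core read gaaatcgaaa and began between 73 and 35 bases before the start. The other motifs searched, the interferon-gamma-activated site TTCNNNGAA (8.3% of all windows) and the PU.1 element GAGGAAGT (3.2%), had no match in any window of the 9 members. Ifi209 was the member without an ISRE match. The 150 bases before the start are printed here for Ifi209 beside Ifi214, whose window is a near copy. They are also printed for Ifi205 and Ifi211, the members with the next largest differences between the media, and for Ifi206 and Ifi208, whose windows are nearly the same. Capitals mark the ISRE core and, in Ifi209, the bases aligned with the core of Ifi214. These are Ifi209 chr1:173630709-173630858 (plus strand), Ifi214 chr1:173535958-173536107 (minus), Ifi205 chr1:174031756-174031905 (minus), Ifi211 chr1:173913047-173913196 (minus), Ifi206 chr1:173491319-173491468 (minus) and Ifi208 chr1:173673515-173673664 (plus), all GRCm38.p6 and written 5′ to 3′.
Ifi209: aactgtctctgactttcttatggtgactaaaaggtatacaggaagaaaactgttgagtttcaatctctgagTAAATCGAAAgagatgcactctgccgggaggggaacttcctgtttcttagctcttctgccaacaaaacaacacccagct
Ifi214: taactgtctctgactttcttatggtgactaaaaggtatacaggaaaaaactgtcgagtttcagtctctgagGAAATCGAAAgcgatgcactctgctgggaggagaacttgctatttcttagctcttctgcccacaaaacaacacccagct
Ifi205: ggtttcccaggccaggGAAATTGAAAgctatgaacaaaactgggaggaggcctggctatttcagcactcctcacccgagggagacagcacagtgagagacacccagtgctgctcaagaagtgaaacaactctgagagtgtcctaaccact
Ifi211: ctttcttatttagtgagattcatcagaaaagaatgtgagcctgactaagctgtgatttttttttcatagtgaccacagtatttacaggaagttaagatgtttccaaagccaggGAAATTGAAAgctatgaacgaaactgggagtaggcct
Ifi206: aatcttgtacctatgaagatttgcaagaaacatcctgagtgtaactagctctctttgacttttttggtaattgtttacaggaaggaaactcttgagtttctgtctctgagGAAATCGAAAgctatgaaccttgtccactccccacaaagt
Ifi208: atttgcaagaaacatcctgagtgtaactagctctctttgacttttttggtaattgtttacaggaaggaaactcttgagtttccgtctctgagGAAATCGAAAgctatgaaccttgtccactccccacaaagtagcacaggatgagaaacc

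Over their aligned bases, the whole windows of Ifi209 and Ifi214 were 96.0% identical (287 of 299 bases). In the core, which begins 79 bases before the start in both, Ifi209 differs from Ifi214 by 1 substitution, G1T, with Ifi214 as the reference and positions counted from 1 at the first base of its core. The windows of Ifi206 and Ifi208 were 99.3% identical, those of Ifi208 and Ifi213 98.9%, those of Ifi203 and Mndal 97.6% and those of Ifi205 and Ifi211 94.0%. A match is a run of letters, no match says only that these letters are not in the window, and no binding was measured.

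Per length, the genes ranged widely in level and kept nearly the same order in both media. Ifi209 led, with mean FPKM (counts relative to gene length and library total, the authors' values) of 958 ± 94.4 with HTR2C-negative and 582 ± 21.8 with HTR2C-positive medium (SD, n = 3 here and in the values that follow), followed by Ifi205 with 662 ± 55.0 and 520 ± 21.8. Ifi211 stood at 455 ± 38.5 and 361 ± 21.3 FPKM and Ifi204 at 396 ± 14.8 and 339 ± 44.6, and the ranges of this pair overlapped with HTR2C-positive medium. Mndal followed with 224 ± 8.35 and 191 ± 1.97 FPKM, then Ifi207 with 138 ± 18.9 and 111 ± 13.4. Ifi206 (88.6 ± 4.02 and 81.7 ± 7.24 FPKM), Ifi203 (80.6 ± 5.88 and 72.1 ± 4.89) and Ifi213 (66.4 ± 4.04 and 61.8 ± 5.14) lay close together, though each was above the next in all 6 libraries. Ifi208 was lowest, at 17.2 ± 1.88 and 18.9 ± 1.78 FPKM. Ifi209 lay at percentile 99.4 and Ifi208 at percentile 82.9 of the levels of all tested genes, so every member was among the more abundant transcripts.

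**Figure D1:**
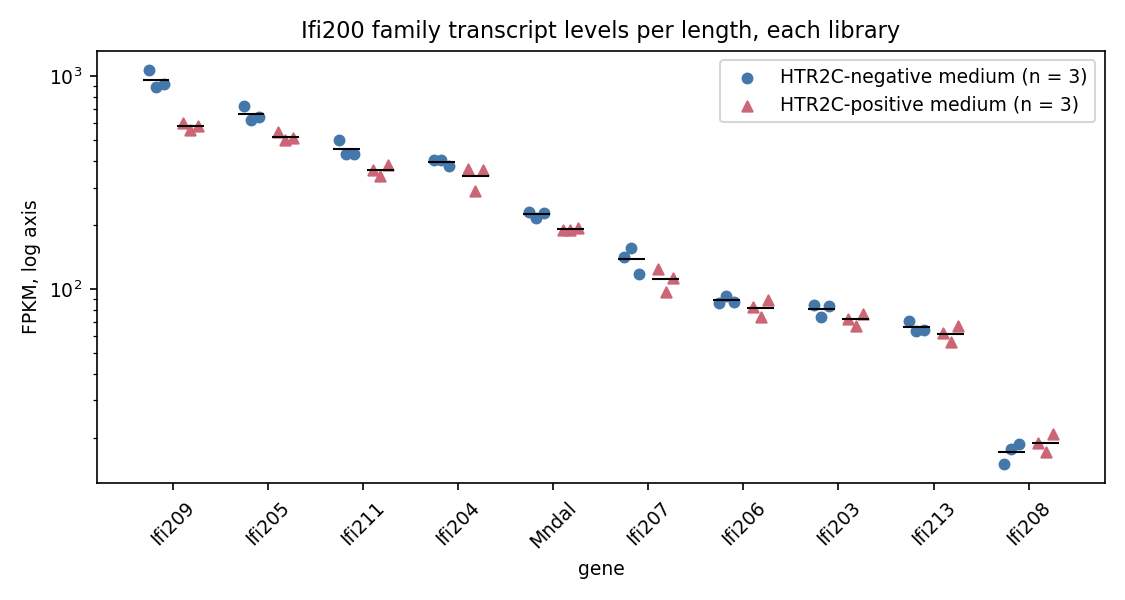
FPKM of the 10 genes on a log axis, 1 point per library (circles, HTR2C-negative medium; triangles, HTR2C-positive medium) with a line at each group mean. Ifi209 is highest with means of 958 and 582 FPKM and shows the widest gap between the media; Ifi208 is lowest with 17.2 and 18.9 FPKM.

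The comparison between the media asked how these transcripts differ when the conditioning cells carried HTR2C. Ifi209 (ENSMUSG00000043263, chr1:173458483-173475494 on the plus strand, GRCm39) was at 4288, 2967 and 3531 CPM in the N libraries, in the order N1 to N3, and at 1898, 2065 and 1951 CPM in P1 to P3. The groups did not overlap, and the P mean was 45.2% below the N mean, with a log2 fold change (HTR2C-positive minus HTR2C-negative medium) of -0.87 (SE 0.17, 95% interval -1.24 to -0.50). The adjusted p in edgeR's quasi-likelihood test was 0.0805 over all tested genes, so the gene failed the threshold of 0.05, and it held place 25 of 10177 by p. Without N2 the adjusted p in edgeR was 0.0229 and without P1 it was 0.0347, each passing, with log2 fold changes of -0.98 and -0.82. In all, 127 genes passed as lower and 79 as higher without N2, and 113 and 73 without P1, against 0 with all 6 libraries. N2 and P1 were the libraries most alike across groups, so no conclusion is drawn from these passes. Without N1, the library with the highest value, the adjusted p of Ifi209 was 0.564 in edgeR with a log2 fold change of -0.72.

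Ifi205, reported to regulate expression of the inflammasome adaptor ASC, was at 3435, 2446 and 2892 CPM in the N libraries and 2019, 2188 and 2006 CPM in the P libraries. Ifi211 was at 1012, 730 and 832 CPM against 573, 630 and 640 CPM. In both genes each P library lay under each N library, and the log2 fold change was -0.50 (SE 0.17) for Ifi205 and -0.48 (SE 0.16) for Ifi211. Their adjusted p were 0.170 and 0.174 in edgeR. Much of the Ifi211 transcript is shared with other members: of its stretches of 50 bases, 72.8% occur in another member's transcripts and 44.7% in those of Ifi205, and 46.4% of its stretches of 150 bases are shared. How reads mapping to both genes were counted is not given in the sources used here. Summed, the pair was at 3782 ± 638 CPM in the N and 2686 ± 118 CPM in the P libraries (n = 3), a ratio of 0.710. That sum does not depend on how reads were split between Ifi205 and Ifi211. It does not cover reads shared with other members, whose part was not tested. With a trend over GC content and length removed from each library, the log2 fold changes were -0.13 for Ifi205 and -0.11 for Ifi211.

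Ifi207, a nuclear member that acts on cytokine gene transcription, was at 547, 503 and 436 CPM in the N libraries and 376, 346 and 364 CPM in the P libraries. Its log2 fold change was -0.45 (SE 0.15, adjusted p = 0.166 in edgeR), and the groups did not overlap. Ifi204, the DNA sensor, was at 1626, 1366 and 1453 CPM against 1156, 1065 and 1217 CPM. Mndal, named for its likeness to the human myeloid nuclear antigen gene MNDA, was at 940, 729 and 879 CPM against 607, 710 and 653 CPM. In both of these genes the groups were apart, by a narrow gap in Mndal, and both had log2 fold changes of -0.37 (SE 0.15 and 0.16). Their adjusted p in edgeR were 0.248 and 0.263.

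In the other 4 genes the 95% interval of the log2 fold change included 0. Ifi206 was at 298, 269 and 285 CPM in the N libraries and 223, 236 and 255 CPM in the P libraries, without overlap, and its log2 fold change of -0.26 had a 95% interval from -0.56 to 0.05. Ifi203 (log2 fold change -0.31, interval -0.66 to 0.04) and Ifi213 (-0.25, interval -0.59 to 0.09) had overlapping groups, since N2 lay among the P libraries. Ifi208, at 90.4, 88.5 and 106 CPM against 87.9, 94.2 and 103 CPM, had nearly equal means (95.04 and 94.94 CPM) and a log2 fold change of -0.002. Its interval of -0.32 to 0.32 does not exclude differences of the size seen in Ifi206. Within the N group, N1 had the highest value in every member but Ifi208.

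**Figure D2:**
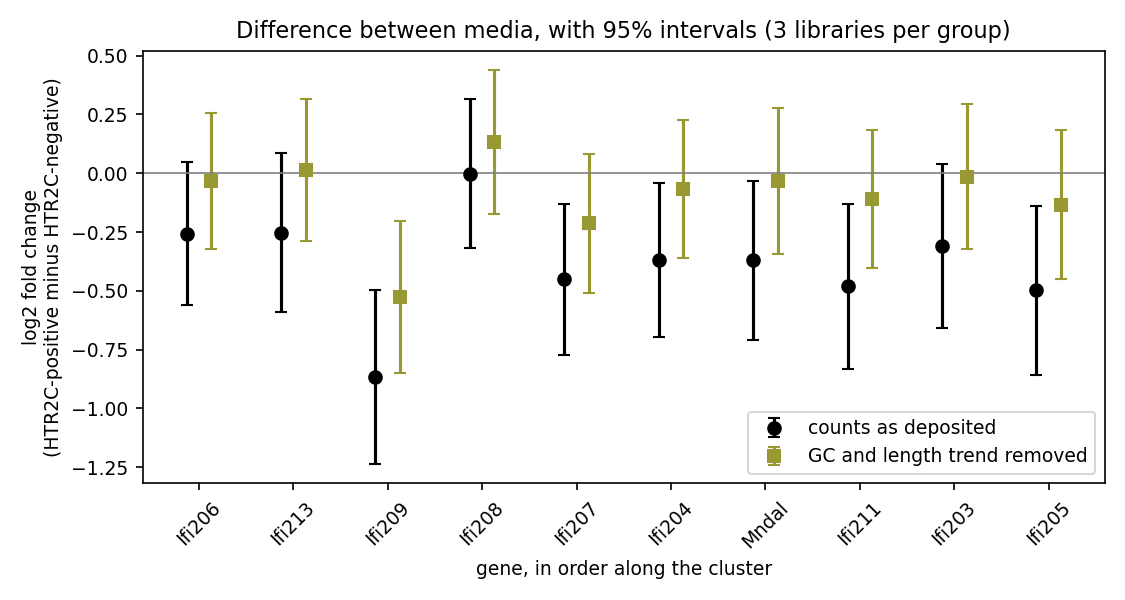
Log2 fold change of each gene (HTR2C-positive minus HTR2C-negative medium, 3 libraries per group) with 95% intervals, in order along chromosome 1, from the counts as deposited (black circles) and after removal of a trend over GC content and length per library (olive squares). Ifi209 has the lowest value in both, at -0.87 and -0.53, while Ifi208 lies at -0.002 and 0.13.

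Counted together, 0 of the 10 members had an adjusted p under 0.05, as for all tested genes (0% in either direction). At an unadjusted p under 0.05, 6 members had lower values with HTR2C-positive medium and 0 higher, against 8.71% (886) and 7.9% (804) of all tested genes. In 7 members the groups did not overlap with the P libraries lower, and in 0 with them higher, against 11.5% and 10.9% of all tested genes. The sign of the log2 fold change was negative in 10 members and positive in 0, against 47.9% and 52.1% of all tested genes, though that of Ifi208 turned with scaling, filter or block. The members' median log2 fold change was -0.37, that of all tested genes 0.02, and that of the 1373 genes at or above the lowest member's mean CPM -0.14. DESeq2 passed 1 member, Ifi209, against 261 lower and 133 higher genes in all. In limma-voom, 0 members and 0 genes in all passed. Without both N2 and P1, 6 members passed (Ifi209, Ifi205, Ifi211, Ifi207, Ifi204 and Mndal), against 652 lower and 455 higher genes in all. N2 and P1 were the pair of libraries most alike across groups (r = 0.980 over genes). They were also more alike than any pair within a group (highest r = 0.974, N2 and N3). Leaving out such a pair sets the remaining groups farther apart, so no conclusion is drawn from these calls. Without N1 alone, 2 members had lower values at an unadjusted p under 0.05, and by total counts alone 3 did. The median of all tested genes was 0.02 in the former fit and 0.16 in the latter. The share of all tested genes at that threshold in these fits is not given here.

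Fold changes in these libraries followed the GC content of the transcript, and the Ifi200 transcripts are poor in GC, from 36.1% in Ifi205 to 44.7% in Ifi208. When tested genes were ranked by GC content and divided into 4 bins of equal size, 8 members fell in the lowest bin and 2 in the next. In that lowest bin the median log2 fold change was -0.26, and 23.1% of 2541 genes had lower values at an unadjusted p under 0.05, and in the highest bin the median was 0.37. With a smooth trend over GC content and length removed from each library, the members' median was -0.05, and 1 member, Ifi209, kept an unadjusted p under 0.05. The median of all tested genes was 0.01 in that fit, and their share at that threshold is not given here. The log2 fold change of Ifi209 was then -0.53 (95% interval -0.85 to -0.20, adjusted p = 0.301 in edgeR), and the others ranged from -0.21 for Ifi207 to 0.13 for Ifi208.

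Ratios within the family need no scaling of libraries. For each count of Ifi205, there were 1.25, 1.21 and 1.22 counts of Ifi209 in the N libraries and 0.940, 0.944 and 0.972 in the P libraries. These are 1.23 ± 0.0184 and 0.952 ± 0.0176 (SD, n = 3), a gap many times the spread within either group. Relative to Ifi204 the ratio was 2.64, 2.17 and 2.43 against 1.64, 1.94 and 1.60, also without overlap. Ifi209 made up 31.9%, 29.7% and 30.7% of the family's counts with HTR2C-negative and 24.5%, 25.2% and 24.1% with HTR2C-positive medium. It was the top gene of the family in the N libraries, and Ifi205 took that place in the P libraries by count, though not per length. Ifi209 was chosen for these ratios after its values were seen, so no test is given. The GC content of Ifi209 (39.3%) is above that of Ifi205 (36.1%) and below that of Ifi204 (40.6%). Such ratios do not remove a trend over GC content or length, and its part in them was not tested.

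**Figure D3:**
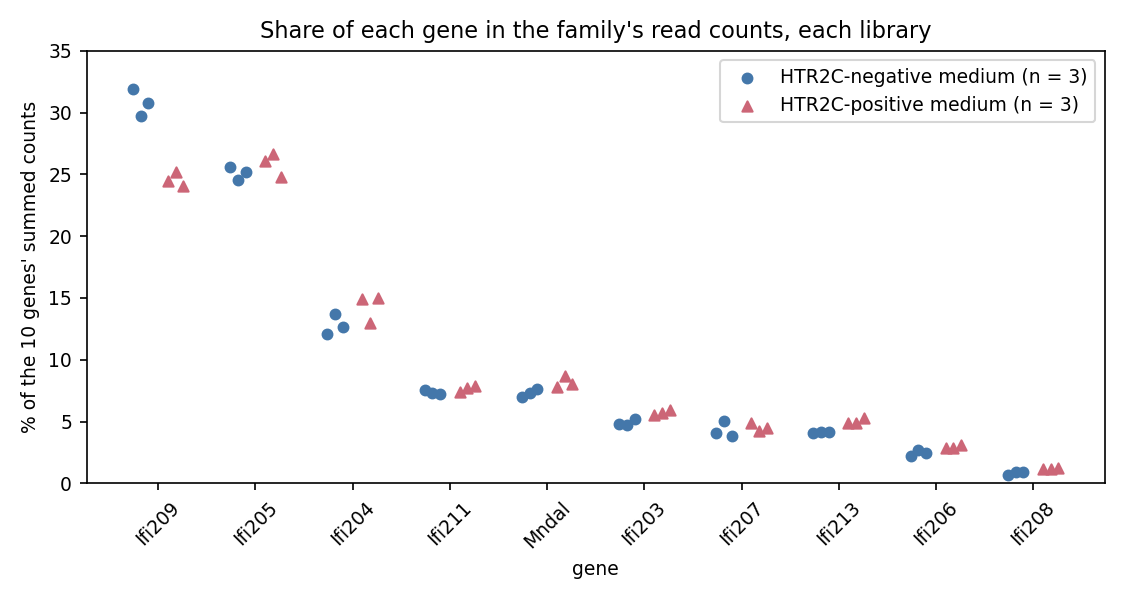
Share of each gene in the summed counts of the 10 genes, in percent, 1 point per library (circles, HTR2C-negative medium; triangles, HTR2C-positive medium). Ifi209 lies between 29.7% and 31.9% with HTR2C-negative and between 24.1% and 25.2% with HTR2C-positive medium, while Ifi205 overlaps.

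As a whole the family held 1.18%, 1.06% and 1.07% of all counts in the N libraries and 0.872%, 0.788% and 0.862% in the P libraries. In scaled CPM the sum was 11634 ± 1732 and 8018 ± 241 (SD, n = 3), a ratio of 0.689. Without Ifi209 the sums were 8039 ± 1070 and 6047 ± 173 CPM, a ratio of 0.752, so the other members carried a large part of the difference. The sum of all 10 spread more over the N than over the P libraries, from 9979 CPM in N2 to 13434 CPM in N1.

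Genes of the same stretch that are not members had far lower counts. Ifi214, whose promoter window is a near copy of that of Ifi209, had 372 to 485 counts in the N libraries and 356 to 404 in the P libraries. These were 32.6 ± 7.06 and 23.6 ± 2.99 CPM (log2 fold change -0.46, SE 0.20, -0.30 without N1, and -0.16 without the GC and length trend). Of the 50-base stretches in Ifi209 transcripts, 33.4% also occur in Ifi214 and 0% in other members. Of its 150-base stretches, 9.28% occur in Ifi214. Ifi214 held 0.855% to 1.25% of the counts of both genes together, and how reads that fit both were counted was not tested. Aim2, the inflammasome sensor, was at 79.2 ± 9.59 and 62.1 ± 8.22 CPM, with P1 at 69.5 CPM under the lowest N library at 73.6. Its log2 fold change was -0.35 (SE 0.16), or -0.10 without the GC and length trend. Both tested relatives, Aim2 and Ifi214, had lower values at an unadjusted p under 0.05, but 0 of the 2 did by total counts alone or without the trend. Over all tested genes, 8.71% had lower values at that threshold. Ifi202b, whose protein has no pyrin domain, had 0 to 12 counts per library and was not tested. On the flanks, Cadm3 had 0 counts in each library and Ackr1 0 to 2. The olfactory receptor genes Olfr433, Olfr432 and Olfr430 had at most 45, 14 and 12 counts.

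Of the genes of the interferon pathway, the type I ligands listed had almost no reads. Ifnb1 had 0, 3 and 1 counts in the N libraries and 1, 2 and 0 in the P libraries. Ifna1, Ifna2 and Ifna5 had 0 in all and Ifna4 had 3 in P2 alone. The ligand gene Ifng had 6, 16 and 29 counts in the N libraries and 10, 26 and 10 in the P libraries. It was tested, with a log2 fold change of -0.33 (SE 0.68). Of the 6 tested ligand and receptor genes, 1 had lower and 0 higher values at an unadjusted p under 0.05 (median log2 fold change -0.06), and 0 did by total counts alone (median 0.09). The lower one was Il10rb, a subunit of the interleukin 10 and interferon lambda receptors (-0.40, SE 0.16), next to Ifngr2 (0.26, SE 0.17, and 0.08 without P1) and Ifnar2 (0.19, SE 0.14, and 0.12 without N1). Over all tested genes, 8.71% had lower and 7.9% higher values at that threshold. Shares of all tested genes in the alternative fits are not given here, for this list or the other lists.

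Of 15 signalling genes, which carry the signal from receptor to promoter or restrain it, 6 had higher and 1 lower values at an unadjusted p under 0.05. Over all tested genes the shares were 7.9% higher and 8.71% lower. The median log2 fold change of the 15 was 0.34. Socs3, a feedback inhibitor of JAK kinases, was at 299 ± 29.8 and 465 ± 28.6 CPM, without overlap. Its log2 fold change was 0.64 (SE 0.15), or 0.22 without the GC and length trend. The kinase gene Tyk2 had a log2 fold change of 0.77 (SE 0.23, and 0.35 with the trend removed), and the inhibitor gene Socs1 one of 1.28 (SE 0.38), which was 0.57 without P1, the library with 43.6 CPM against 15.9 and 13.4 in P2 and P3. Irf9, which encodes a DNA-binding factor of the ISRE, was at 150 ± 12.8 and 113 ± 15.2 CPM (-0.41, SE 0.15). It was the 1 signalling gene with lower values at an unadjusted p under 0.05, its groups did not overlap, and with the trend removed its log2 fold change was -0.53. Irf9 was named here for its role at the ISRE after its values were seen. Irf1 (0.39, SE 0.15) and Stat2 (0.30, SE 0.14) of the same list were higher, also without overlap. With the trend removed they were at 0.18 and 0.11. Of the 15 genes, 12 had positive and 3 negative log2 fold changes. With the trend removed, 1 signalling gene had higher and 1 lower values at an unadjusted p under 0.05 (median 0.16), and by total counts alone 7 had higher and 0 lower values (median 0.50).

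Of 31 other interferon-stimulated antiviral genes, 4 had lower and 0 higher values at an unadjusted p under 0.05, against 8.71% and 7.9% of all tested genes. The median of these 31 was -0.06. By total counts alone the counts were 2 lower and 2 higher (median 0.08), and without the GC and length trend 2 lower and 0 higher (median -0.08). The 3 with the smallest p were the RNA-binding Ifit genes: Ifit2 (log2 fold change -0.68, SE 0.18), Ifit3 (-0.47, SE 0.15) and Ifit1 (-0.37, SE 0.16). Without the trend these were -0.43, -0.32 and -0.08, and Ifit1 no longer had an unadjusted p under 0.05. Of 17 interferon-induced GTPases, which act on vacuoles of pathogens, 8 had lower and 0 higher values at the same threshold, with a median of -0.37, close to that of the Ifi200 genes. The 3 with the smallest p were Gbp7 (log2 fold change -1.10, SE 0.18), Tgtp2 (-0.80, SE 0.18) and Tgtp1 (-0.65, SE 0.16), which were -0.88, -0.53 and -0.40 without the trend. With the GC and length trend removed, 7 GTPases had lower values at an unadjusted p under 0.05 (median -0.20), against 1 of the 10 Ifi200 genes. The share of all tested genes at that threshold with the trend removed is not given here, so neither count can be set against it. The difference between the lists was not tested.

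Over all tested genes, 8.71% had lower and 7.9% higher values at an unadjusted p under 0.05. Of 16 tested genes of cytosolic DNA sensing and the inflammasome, the pathways in which the family acts, 4 had lower and 2 higher values (median -0.07). By total counts alone 0 of these genes had lower and 3 higher values (median 0.08). Without the GC and length trend the counts were 0 lower and 1 higher (median -0.06). Without both N2 and P1 they were 7 lower and 2 higher (median -0.19), from which no conclusion is drawn. Casp4 and Casp1, the inflammatory caspase genes, were at 752 ± 109 and 702 ± 107 CPM in the N libraries and 555 ± 72.6 and 522 ± 67.0 CPM in the P libraries, with log2 fold changes of -0.44 and -0.43 (SE 0.17 each), which were -0.09 and -0.10 with the trend removed. The kinase gene Ikbke had a log2 fold change of 0.65 (SE 0.20). Sting1, the adaptor below Ifi204, was counted at 1.06, 1.17 and 1.75 CPM in the N libraries and 2.28, 5.16 and 1.27 CPM in the P libraries, with overlapping groups, and Trex1, which encodes a DNA exonuclease, had 0 counts in all 6. How reads in overlapping genes were counted is not given in the sources used here, so these low counts are not read as low expression. Pycard, which encodes ASC, was at 57.0 ± 2.11 and 56.3 ± 9.90 CPM, and Cgas, another cytosolic DNA sensor, at 26.1 ± 4.28 and 23.0 ± 4.51 CPM. Sting1, Trex1, Pycard and Cgas were named for their role after their values were seen.

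**Figure D4:**
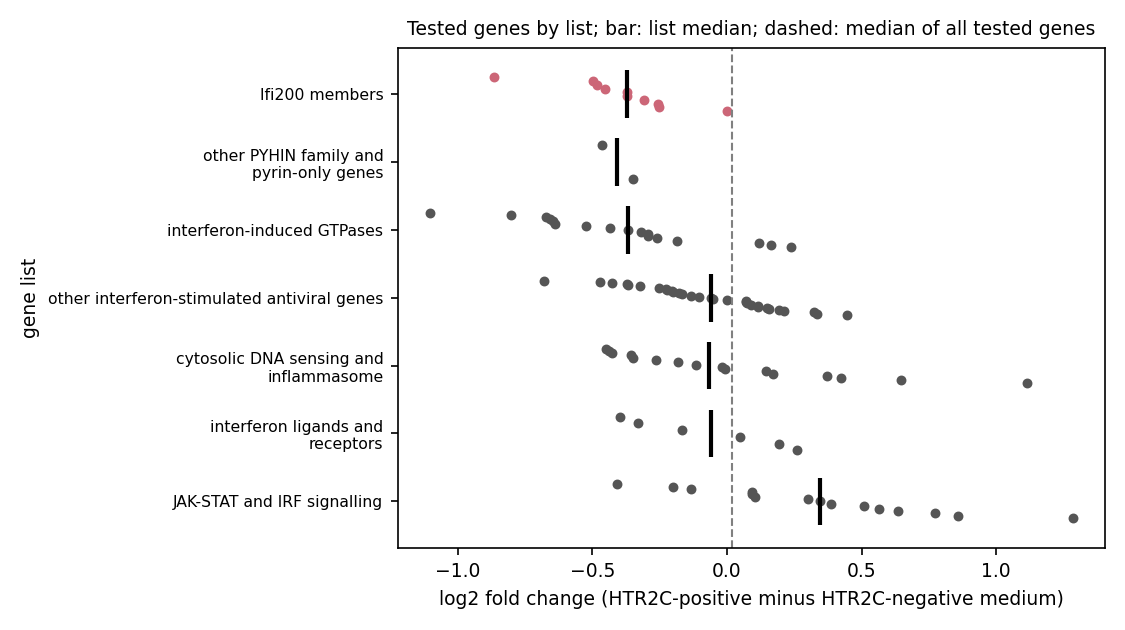
Log2 fold change (HTR2C-positive minus HTR2C-negative medium) of each tested gene of the Ifi200 family (top row) and of 6 related lists, ordered by value within a list, with a bar at the list median and a dashed line at the median of all tested genes (0.02). The Ifi200 and GTPase medians both lie at -0.37, the JAK-STAT and IRF median at 0.34.

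Genes near the mean profile of the 10 members were sought among non-members of at least 2 CPM. Only ordinary symbols were kept (no Gm number, Rik or clone-like name). Across the 6 libraries, Ifit1 lay nearest in centred log2 CPM, at a root-mean-square distance of 0.031 log2 units. Next came Nop58 (0.034), which encodes a core protein of small nucleolar ribonucleoproteins, the mRNA export gene Thoc2 (0.035), the NF-kB subunit gene Rel (0.039) and Ttc39b (0.040). The mean profile itself was 0.35, 0.02 and 0.20 in the N libraries and -0.25, -0.17 and -0.14 in the P libraries, so N2 stood nearest to the P libraries. Among the members, Mndal lay nearest to that profile (0.058), while Ifi209 (0.246) and Ifi208 (0.226) lay farthest, the former by its wider swing and the latter by its flat course. All these genes share the same 6 libraries and their scaling.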

How the data were processed

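The authors deposited one table of counts and FPKM for each gene in every library, with GRCm39 coordinates and lengths. Tools named in the submitters' processing notes are HISAT2, fastp, edgeR and StringTie, without versions. How strand and reads mapping to several genes were treated is not given in the sources used here. Per the file headers, the deposited counts are whole numbers without normalization. The deposited FPKM values equal count over length and total count (largest relative difference 3.8e-07). Counts were tested in R 4.3.3 with edgeR 4.0.16: filterByExpr, TMM factors and the robust quasi-likelihood F test, with Benjamini-Hochberg values over 10177 genes and a threshold of 0.05. SE and 95% intervals come from that fit, and CPM values use its TMM factors. The fit was tested on simulated data. GC content and shared stretches of 50, 100 or 150 bases came from GENCODE M21 transcripts (gene IDs only, GC content found for 21851 of 21959 genes, the median taken for the rest), and promoter windows from RefSeq on GRCm38.p6, aligned with Biopython 1.88. The trend with GC content and length was fitted per library with splines of 4 degrees of freedom and used as an offset. Named genes are all members, all genes between them, the nearest 3 on each side and up to 3 with the smallest p per list. Also named are the 5 non-members nearest to the members' mean profile, of at least 2 CPM and with an ordinary symbol as above. Genes named outside this rule, the interferon ligands among them, were chosen after their values were seen. The members and lists were chosen with earlier results of these data known. DESeq2 1.42.0 and limma 3.58.1 were alternatives, beside other scalings, filters, trends, a replicate block and left-out libraries.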

Additional observations from a re-analysis of the deposited data

How the results depend on the processing

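In edgeR, 0 members passed an adjusted p of 0.05 in either direction. The number of members lower at that threshold was 1 without a count filter, 1 with DESeq2, 6 without N2 and P1 together, and 0 to 1 when 1 library was left out; where it was 1, that member was Ifi209. Over all tested genes, 0 passed in edgeR, against 216 lower and 206 higher without a count filter, 261 and 133 with DESeq2, 652 and 455 without N2 and P1 together, and 0 to 127 lower and 0 to 79 higher when 1 library was left out (127 and 79 without N2, 113 and 73 without P1). The members lower at an unadjusted p under 0.05 numbered 6, and 3 with total counts alone, 1 with the GC and length trend removed, 3 with the replicate block and the length trend removed, 1 with the replicate block and the GC and length trend removed, and 2 to 7 when 1 library was left out (2 without N1). Shares of all tested genes at that threshold in these alternatives are not given here. The members' median of -0.37 became -0.05 with the GC and length trend removed, with the block (-0.0518) or without it (-0.0494). The fit with block and GC trend together was chosen after seeing the data. Leaving out N2 and P1, the pair most alike across groups, sets the groups farther apart, so no conclusion is drawn from that rise in calls. The cause of these differences was not tested. Ifi209 was negative in all 18 alternatives (-0.98 to -0.52, adjusted p from 2.69e-06 to 0.774 in the tools run, edgeR, DESeq2 and limma), as were the other members except Ifi213 and Ifi208. Ifi213 became 0.0146 with the GC and length trend removed and 0.0179 with the block in addition. Ifi208, near 0 throughout, became 0.137 with total counts alone, 0.0157 without a count filter, 0.00367 with at least 1 CPM in 3 libraries, 0.000487 with the replicate block, 0.131 with the GC and length trend removed, 0.134 with the block in addition, 0.0161 without N2 and P1 together and -0.0546 to 0.101 when 1 library was left out. Total counts alone moved the median of all tested genes from 0.02 to 0.16, and the members' distance from it from -0.39 to -0.38. Same-numbered libraries did not deviate together (r over genes of -0.152, -0.231 and 0.0532), and of the 6 libraries P3 alone correlated best with the library of its own number. With the replicate block, 4 members were lower at an unadjusted p under 0.05 and the adjusted p of Ifi209 was 0.358 in edgeR. The lowest count of a member in a library was 1022.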
